A study of Mus musculus with 4 samples.

Results

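Chromatin accessibility was examined around 9 interferon-response genes of the mouse, namely Irf1, Irf7, Ifit1, Ifit2, Ifit3, Ifitm1, Ifitm2, Ifitm3 and Isg15. They were chosen by name among 21887 protein-coding genes in the RefSeq table of GRCm38.p6. They lie at 5 loci, since the Ifit genes form a cluster on chromosome 19 and the Ifitm genes form another on chromosome 7. All peaks in or within 50 kb of these genes were collected, which gave 89 merged sites of 170558 in the whole series. A merged site is a stretch covered by overlapping peaks of any of the 4 libraries.

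The study compared chondrocytes, the cells of cartilage, before and after serial passage by ATAC-seq, in which a transposase inserts sequencing adapters where DNA is exposed. Cells were isolated from knee cartilage at postnatal days 0 to 4, in mice of the C57BL/6 strain. The 2 libraries of passage 0 (P0) came from primary cells kept for less than 24 h in culture, and the 2 libraries of passage 8 (P8) came from cells replated 8 times, each time seeded at 24000 and collected at 48000 cells per cm2. Both groups shared strain, tissue and medium, each library was made from 50000 cells without sorting, and the labels do not say whether the 2 libraries of a passage came from separate animals or cultures, so that the spread between them may be technical.

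Interferons are secreted proteins that warn cells of viral infection. Type I and type III interferons activate a complex that includes STAT2 and IRF9 and binds the interferon-stimulated response element (ISRE), while the response to interferon gamma acts through the gamma-activated site (GAS). IRF1 and IRF7 are transcription factors of the same system, the IFIT proteins bind viral RNA and restrain its translation, the IFITM proteins sit in membranes and hinder viral entry, and ISG15 is a ubiquitin-like protein that is attached to other proteins.

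Upstream sequence was taken from RefSeq for 11 listed starts of the 9 genes, as the 250 bases before each start in GRCm38.p6. Both strands were searched for the ISRE as GAAANNGAAA, the GAS as TTCNNNGAA, the AP-1 site as TGANTCA and the TATA box as TATAAA. An ISRE match stood in 4 of the 11 windows, against 2.98% of 32851 listed promoters of the same length, and a GAS match stood in 2, against 7.02%. The AP-1 letters (6.75% of promoters) and the TATA letters (12.4%) each stood in 2. A match is a description of the letters only. The 4 windows with an ISRE match and the GAS window of Irf1 are printed 5′ to 3′ along the gene and end at the base before its start, because these are the windows in which the peaks of the libraries are compared below. Capitals mark the ISRE matches or, in Irf1, the GAS match, and the capitals of Isg15 hold 3 matches that each overlap the next.
Isg15, chr4:156200819-156201068, minus strand: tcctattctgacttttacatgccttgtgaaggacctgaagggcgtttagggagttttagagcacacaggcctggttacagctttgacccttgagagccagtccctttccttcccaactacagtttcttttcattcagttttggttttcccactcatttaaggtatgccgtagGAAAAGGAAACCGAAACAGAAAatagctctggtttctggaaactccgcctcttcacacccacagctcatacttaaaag
Ifit1, chr19:34640639-34640888, plus strand: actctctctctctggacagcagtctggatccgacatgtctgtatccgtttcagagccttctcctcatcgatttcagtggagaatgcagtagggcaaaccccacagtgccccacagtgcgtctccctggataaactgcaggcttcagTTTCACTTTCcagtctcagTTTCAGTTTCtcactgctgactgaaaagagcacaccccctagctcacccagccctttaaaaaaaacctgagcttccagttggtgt
Ifit3, chr19:34583279-34583528, plus strand: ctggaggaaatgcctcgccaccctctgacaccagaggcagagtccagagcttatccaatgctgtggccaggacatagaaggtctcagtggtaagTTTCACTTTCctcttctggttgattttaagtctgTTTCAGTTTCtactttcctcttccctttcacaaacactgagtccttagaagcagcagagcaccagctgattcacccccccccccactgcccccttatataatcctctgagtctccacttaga
Ifitm2, chr7:140955962-140956211, minus strand: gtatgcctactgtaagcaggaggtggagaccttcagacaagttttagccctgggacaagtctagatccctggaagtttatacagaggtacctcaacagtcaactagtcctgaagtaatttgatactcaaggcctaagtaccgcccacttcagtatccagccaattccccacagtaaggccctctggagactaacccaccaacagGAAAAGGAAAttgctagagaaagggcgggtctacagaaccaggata
Irf1, chr11:53769764-53770013, plus strand: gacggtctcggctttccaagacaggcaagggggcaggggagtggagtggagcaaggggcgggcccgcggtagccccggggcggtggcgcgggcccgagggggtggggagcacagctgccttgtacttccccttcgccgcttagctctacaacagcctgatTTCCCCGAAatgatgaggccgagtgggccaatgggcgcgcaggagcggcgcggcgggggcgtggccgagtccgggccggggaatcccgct

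The peaks covered these letters differently from gene to gene. In Isg15 the 3 ISRE matches, from -78 to -57 relative to the start, lay under no peak in any library. In Ifit1 both matches, at -104 to -95 and at -85 to -76, lay under a peak in both P0 libraries and under none in the P8 libraries. In Ifit3 the matches at -156 to -147 and at -122 to -113 lay under a peak in all 4 libraries, and so did the match of Ifitm2 at -46 to -37 and the GAS match of Irf1 at -90 to -82. The second GAS match, at -241 to -233 from the upstream start of Ifit2, lay under no peak. The Irf1 windows stood apart in base composition, with 71.2% and 74.4% G and C and 25 and 35 CpG pairs, against 44.8% to 54.4% and 1 to 9 pairs in the other 9 windows and medians of 52.4% and 6 over all promoters.

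A peak here is a stretch where the pileup of tags exceeded the local background in 1 library, and its fold enrichment is the ratio of the summit pileup plus 1 to that background plus 1. The 4 libraries held 88578 to 144356 peaks on the main chromosomes. Their depth, read from the background of the peak caller, was 194 and 162 tags per 10 kb at P0 against 140 and 134 at P8, so both P0 libraries were deeper. Here and below, the first of a pair of values is that of library A and the second that of library B. The added 1 lowers a ratio more where the background is low, which is in the P8 libraries, and the median log2 ratio of P0 to P8 fold enrichment over 10464 gene starts with a peak in all 4 libraries was 0.23. A ratio near 0.23 is thus that of a typical gene start, and values were also computed after division by each library's median over shared gene-start sites (the scaled values) and as the pileup over background with nothing added. The lowest pileup called at the lowest background was 6 tags in every library, and the limit is higher where the local background is higher, so a missing peak shows a pileup under such a limit and not closed chromatin. With 2 libraries against 2, the exact two-sided permutation test cannot go below p = 0.333, so no difference between the passages can reach 0.05, and called means here only that both libraries of one passage lay above both of the other.

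Most cartilage markers had a peak at both passages. A peak at the gene start or, where no start is listed, at either gene end stood in both P0 libraries for 7 of 7 chondrocyte markers, including Col2a1, Acan and Sox9, and in both P8 libraries for 6 of 7, with Matn1 missing. Of 5 fibroblast markers 5 had one in each P0 library, and 4 and 3 had one in the P8 libraries, with Pdgfra missing from both. Of 6 immune markers, Ptprc, Csf1r, Adgre1 and Cd3e had no peak in any library, Cd68 had one in the P0 libraries only (3.62 and 4.55), and Spi1 had one in every library, counted at either gene end. The summed fold enrichment of the immune list was 15.04 to 15.5 at P0 and 8.04 to 9.31 at P8. Of 4 endothelial markers, Pecam1 and Cdh5 had none and Tek and Kdr had one in every library, with sums of 12.4 to 14.1 at P0 and 9.89 to 10.6 at P8. The sums of the other lists were lower at P8 as well. They were 35.7 and 40.5 at P0 against 33.6 and 29.9 for chondrocyte markers. For fibroblast markers they were 23.6 and 26.4 against 21.2 and 17.0. A missing peak adds nothing to such a sum. The part of other cell types in the results was not tested, and a change in the accessibility of each cell cannot be told apart from a change in the share of cells.

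Around the 9 genes the P0 libraries held slightly more peaks than the P8 libraries. There were 84 and 74 peaks at P0 against 69 and 71, which makes 79.0 ± 7.07 for P0 and 70 ± 1.41 for P8 (SD, n = 2 each; exact permutation test, two-sided, p = 0.333). The passages did not overlap, but the ratio of 1.13 was below 1.28, the median ratio over 19942 genes, and without P0 library A the log2 ratio went from 0.17 to 0.08. Single genes with more peaks in both P0 than in both P8 libraries were 3 of 9, against 48.3% of 20365 genes with a peak, and none of the 9 was called the other way, against 3.95%. The 3 genes were Ifitm1, Ifitm2 and Ifitm3, whose windows share sites. Ifitm2 had 17 and 13 peaks at P0 and 10 and 11 at P8, Ifitm1 had 15 and 14 against 11 and 11, and Ifitm3 had 12 and 12 against 11 and 10. For the other 6 genes the passages overlapped, with Ifit2 at 14 and 14 against 13 and 15 and Irf7 at 12 and 12 against 13 and 12. When only peaks that would pass at the lowest background were kept, the same 3 genes were called, against 46.8% of genes, and again none the other way, against 4.52%.

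Many sites near these genes had a peak in every library. Of the 89 sites, 45 (50.6%, 95% Wilson interval 40.4 to 60.7, counting error only) had a peak in all 4 libraries, against 32.4% of all merged sites and 34.5% of the 140253 sites within 50 kb of any protein-coding gene. The share depended on the merging rule, since with a reciprocal overlap of 50% between peaks of the passages it was 31.5%, against 21.1% of all merged sites. A peak in both libraries of P0 without any at P8 was found at 9 sites (10.1%), against 17.1% of all sites and 16.7% of those near genes. The opposite pattern was found at 1 site (1.12%), against 1.82% and 1.60%. The remaining sites had a peak in 1 P0 library alone (16), in 1 P8 library alone (7) or in other mixtures (11). By place, 13 of the 89 sites lay within 1 kb of a start of the 9 genes and 19 at starts of other protein-coding genes. A further 20 lay inside protein-coding genes, the 9 included, and 37 between genes. None of the 13 sites at the starts of the 9 genes was limited to one passage in both of its libraries.

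**Figure D1:**
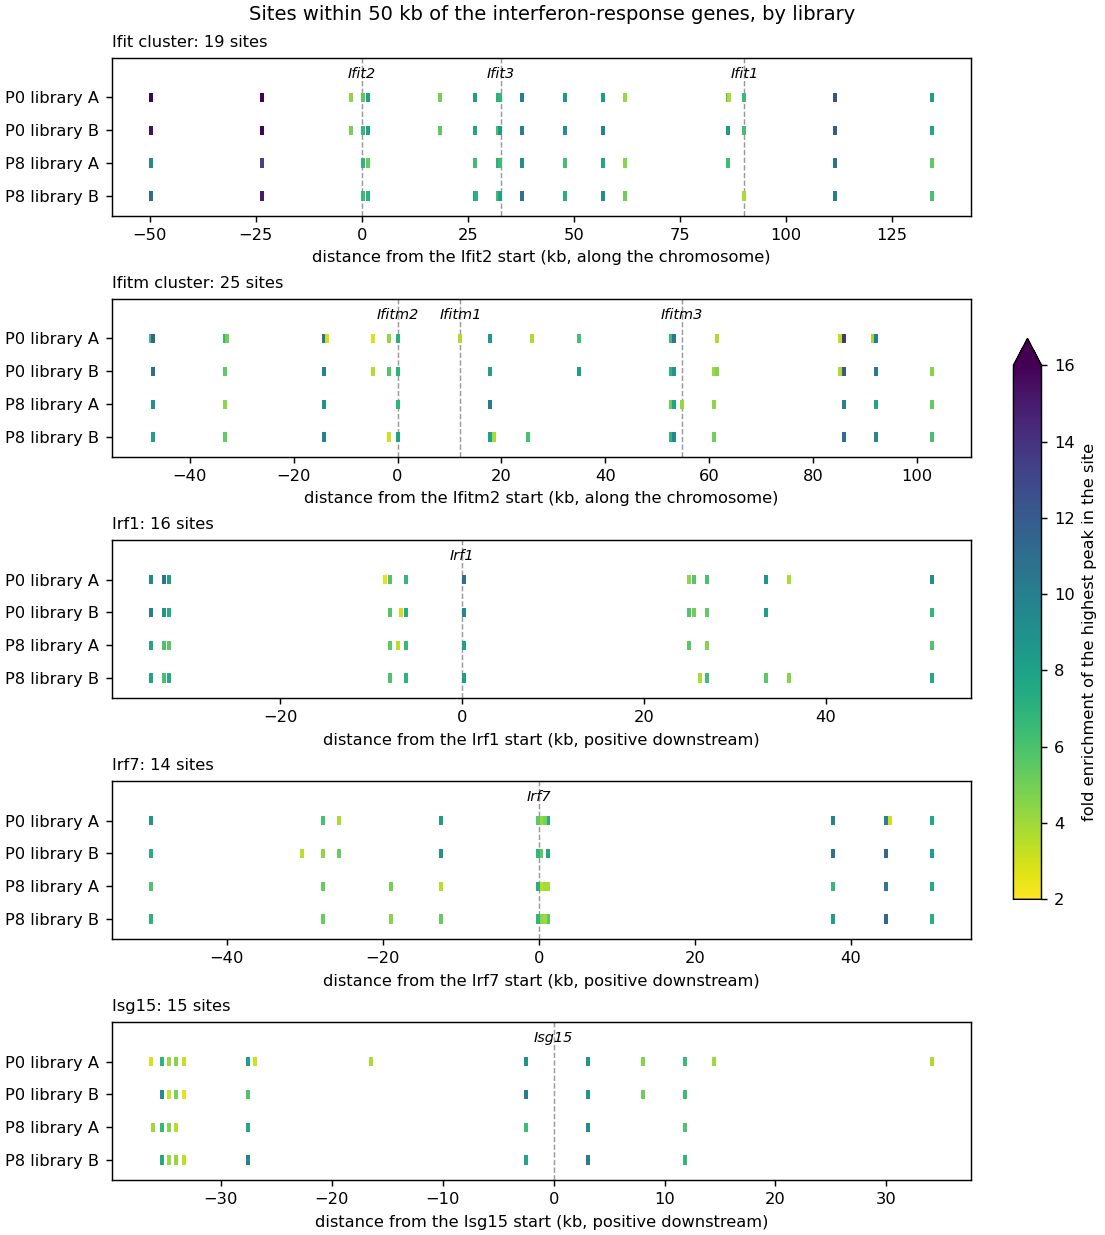
Position (horizontal axis, kb from a gene start) of the sites with a peak in each of the 4 libraries (rows), in 1 panel per locus, with each mark coloured by fold enrichment and dashed lines at the gene starts. Marks that stand in all rows are the 45 shared sites, the Isg15 start has no mark in any row, and sites less than about 1 kb apart run together.

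At the 45 shared sites the fold enrichment was spread around that of the genome. It was higher in both P0 libraries at 21 sites (46.7%, against 49.9% of 55294 shared sites), higher in both P8 libraries at 2 (against 11.6%) and overlapped at 22. The median log2 ratio was 0.18, against 0.20 over all shared sites. The split turned with the scale, since scaled values put P0 higher at 9 sites and P8 at 15 (against 22.2% and 33.6% of all shared sites), and the pileup over background gave 15 and 7 (against 30.9% and 20.7%). Within 10 kb of the genes the share higher at P0 as deposited was 26.3%, without P8 library B it was 80.0%, and scaled it was 20%. For the 10 kb window and the left-out library no share over all shared sites was computed. A call is also met more easily by construction when a library is left out. On all 3 scales alike, 9 sites were higher at P0 (against 20.4% of shared sites) and 2 were higher at P8 (against 11.3%), and the site-by-site values below state where a direction depends on the scale.

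**Figure D2:**
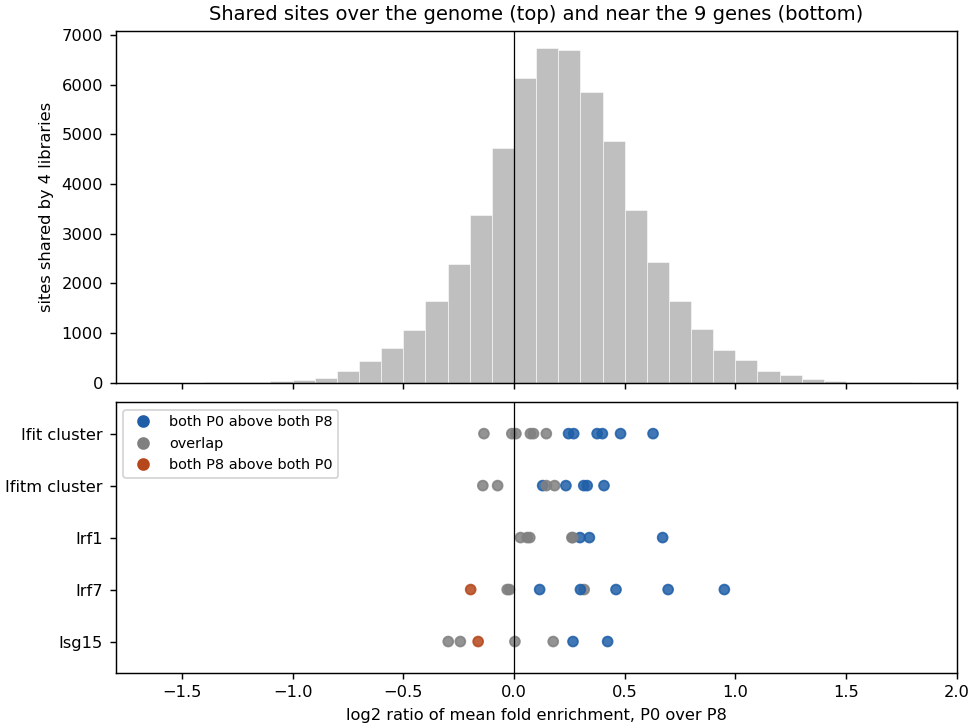
Log2 ratio of mean fold enrichment, P0 over P8 (horizontal axis), for all 55294 sites with a peak in 4 libraries (top, number of sites per bin of 0.1) and for the 45 such sites near the 9 genes by locus (bottom, 1 point per site). Near the 9 genes 21 sites are coloured as higher in both P0 libraries and 2 as higher in both P8 libraries, and most points lie within the bulk of the genome.

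Gene starts were read as the highest fold enrichment of a peak within 1 kb of a listed start. Of the 9 genes, Irf1, Irf7, Ifit2, Ifit3 and Ifitm2 had a start peak in all 4 libraries (5 of 9, against 59.8% of 17492 protein-coding genes with a listed start), Isg15 had none (against 31.6%), and Ifit1, Ifitm1 and Ifitm3 had one in some libraries. Genes with a start peak in both P0 and no P8 library (3.50% of all genes) or the reverse (0.0572%) were not among them. Of the 5 genes, 2 were higher in both P0 libraries, against 61.5% of 10464 genes, and 0 were higher in both P8 libraries, against 4.21%. Scaled values gave 0 and 3, against 20.5% and 32.3%. The 5 starts were of low to middle height, with mean levels between the 20.3 and the 47.6 percentile of those 10464 genes. At P0 Irf1 stood above the other 4 in both libraries, whereas at P8 its 7.98 and 8.21 ran into the range of Ifit3 and Ifitm2, and Ifit2, Ifit3, Ifitm2 and Irf7 were not separated from each other by their spread over the 4 libraries.

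**Figure D3:**
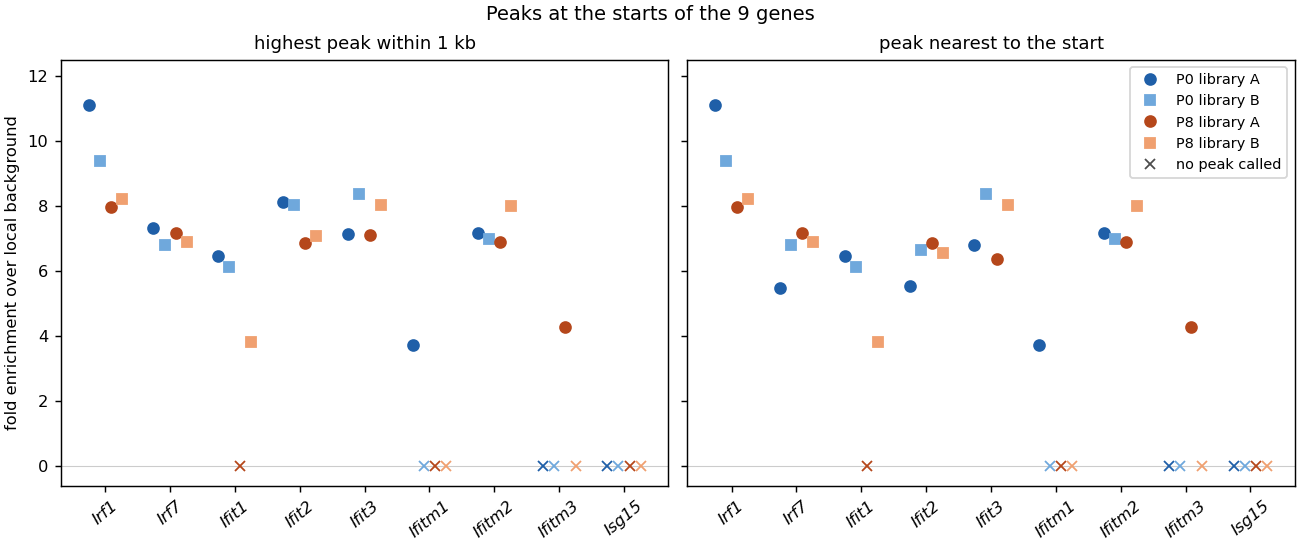
Fold enrichment (vertical axis, ratio to local background) of the highest peak within 1 kb of a gene start (left) and of the peak nearest to the start (right) for the 9 genes, 1 point per library, with crosses at 0 where no peak was called. Among the genes with a point from every library, Irf1 has the widest gap between P0 (11.1 and 9.39) and P8 (7.98 and 8.21). The Irf1 values of the passages overlap after scaling. Ifit1 has no peak in P8 library A, and for Ifit2 and Irf7 the panels differ.

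Irf1 (chr11:53770014-53778374, plus strand), a transcription factor that is itself induced through a GAS, had the highest start peak of the 9 genes. Its fold enrichment, 11.1 and 9.39 at P0, stood against 7.98 and 8.21 in the P8 libraries, from summits of 42, 31, 22 and 21 tags. The P0 values lay above the P8 values, 10.3 ± 1.22 against 8.09 ± 0.166 (SD, n = 2 each), with a log2 ratio of 0.34. Relative to the typical start the difference was small, at 0.08 after scaling, where the passages overlapped. The highest summits stood 57 to 97 bases upstream of the first start, next to the GAS letters printed above. In P0 library A 1 peak of 1026 bp covered both listed starts, whereas P0 library B split the stretch into 2 peaks of 424 and 486 bp and each P8 library split it into 3 peaks.

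Of the 5 shared sites upstream of Irf1, 1 had a larger log2 ratio than the start. At -32715 bp from the start (chr11:53737091-53737488) fold enrichment was 10.6 and 8.77 at P0 against 6.02 and 6.14 at P8, a log2 ratio of 0.67 that stayed at 0.41 after scaling. A neighbour at -34250 bp had 9.46 and 9.99 against 7.79 and 8.03, with a log2 ratio of 0.30 that fell to 0.04 after scaling without overlap of the passages. Both lie between protein-coding genes, and the start nearest to both is that of Il5, an interleukin gene. Nearer sites at -8029 and -5996 bp overlapped as deposited, with 5.80 and 5.77 against 5.45 and 5.88 at the first, while scaled values put P8 higher at both (-0.23 and -0.20). Downstream, a site at 24975 bp had a peak in the P0 libraries only (5.73 and 5.10), and a site at 32842 bp had 8.73 and 8.25 at P0, 5.56 in P8 library B and no peak in P8 library A.

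Irf7 (chr7:141263183-141266499, minus strand), the factor that amplifies type I interferon production, held sites with opposite directions over its start and inside the gene. The peak over its start, with a TATA match at -29 to -24, had fold enrichment of 5.49 and 6.80 at P0 and 7.17 and 6.90 at P8. Both P8 values lay above both P0 values on all 3 scales, with a log2 ratio of -0.20, although the summits held 27 and 26 tags at P0 and 26 and 25 at P8. P8 is higher at the nearest start peak of 4.49% of genes, and P0 at 61.3%. Inside the gene, 1151 bp from the start (chr7:141265073-141265445), the values were 7.34 and 7.90 at P0 and 3.83 and 5.57 at P8, and here P0 was higher on all 3 scales with a log2 ratio of 0.70. The peak of this second site reaches within 1 kb of the start in P0 library A alone, so the highest start peak of Irf7 gave a log2 ratio of 0.01, which describes neither site.

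Beyond the gene, the window of Irf7 held both the largest ratio and the site found at P8 alone. At -12426 bp, over the start of Sct, the gene of the hormone secretin, fold enrichment was 8.30 and 8.82 at P0 against 3.49 and 5.37 at P8, a log2 ratio of 0.95 (0.70 after scaling). At the start of Phrf1, 37954 bp downstream, it was 9.71 and 10.7 against 6.67 and 8.16, again higher at P0 on all 3 scales. The P8 site lay between genes at -18940 bp (chr7:141285310-141285420), with 4.94 and 4.55 in P8 libraries A and B and no peak at P0, and it was lost when peaks needed a −log10 q-value of at least 5. Another site, at the start of Drd4, a dopamine receptor gene, had a peak at P0 only (3.78 and 5.23).

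The Ifit genes differed at their starts. Ifit1 (chr19:34640889-34650009, plus strand) had fold enrichment of 6.47 and 6.13 at P0, whereas P8 library A had no peak and P8 library B had 3.83. The P0 summits held 15 and 13 tags and the P8 summit 7, which is 1 tag above the lowest pileup called. The P8 peak had its summit 35 bases inside the gene and did not reach the ISRE letters, while the P0 summits stood 45 and 96 bases upstream of the start. The start of the related gene Ifit1bl2 lies 146 bp away on the other strand, so this site serves both starts and cannot be given to one of them.

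Ifit2 (chr19:34550550-34576534, plus strand) carried a pair of sites that moved differently. Over the upstream start the values were 5.56 and 6.67 at P0 and 6.86 and 6.58 at P8, with overlap and a log2 ratio of -0.14, and P8 was higher only after scaling (-0.40) and in the pileup over background. The site 1088 bp downstream of the second start (chr19:34551693-34552352) had 8.14 and 8.03 at P0 and 5.38 and 7.08 at P8, a log2 ratio of 0.38 that overlapped after scaling (0.12). This second site gave the highest start peak in both P0 libraries and in P8 library B, so the start value of Ifit2 was 0.21 by the highest peak, -0.05 after scaling and -0.14 by the nearest peak. A small site at -2498 bp had a peak at P0 only (4.39 and 4.90), as did one at chr19:34569133-34569334 inside the gene (4.97 and 5.49).

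Ifit3 (chr19:34583119-34588982, plus strand) had overlapping values at both passages as deposited. Its start peak over the ISRE letters had fold enrichment of 6.81 and 8.37 at P0 and 6.38 and 8.04 at P8, and a site at -627 bp had 7.14 and 6.12 against 7.11 and 6.24. Near its 3′ end, 5009 bp into the gene, the values were 10.0 and 9.99 at P0 and 9.17 and 10.7 at P8. The spread between libraries of one passage exceeded the difference between passages at these 3 sites as deposited. Scaled values put P8 higher for the highest start peak (-0.23) and for the site near the 3′ end (-0.25). The start of its near copy Ifit3b gave 8.29 and 9.72 against 7.75 and 9.19, with P8 higher only after scaling (-0.17). The aligned upstream windows of Ifit3 and Ifit3b had 86.8% identity, against 62.4% between Ifit3 and Ifit1. The latter is near the level of genes at different loci, such as 61.6% between Isg15 and Ifitm2. Reads may be shared between Ifit3 and Ifit3b, which was not tested, so both values are uncertain. At the edge of the cluster, sites in and at Lipa, a lysosomal lipase gene, had the highest values of the 89 sites at P0, with 16.1 and 15.6 against 9.39 and 11.1 inside Lipa (log2 ratio 0.63, higher at P0 on all 3 scales) and 15.99 and 18.2 against 13.2 and 15.1 at its start, where scaled values overlapped.

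Of the Ifitm genes, Ifitm2 (chr7:140954837-140959686, minus strand) alone had a start peak in every library. Its fold enrichment was 7.19 and 6.99 at P0 against 6.91 and 8.01 at P8, with overlap and a log2 ratio of -0.07, while scaled values and the pileup over background put P8 higher (-0.33 after scaling). The Ifitm1 start (chr7:140967429-140969827, plus strand) held 1 peak in all, in P0 library A, at 3.73 from 8 tags. The Ifitm3 start (chr7:141009590-141010744, minus strand) likewise held 1, in P8 library A, at 4.30 from 16 tags. Single peaks of this kind are not a difference between passages. The shared site nearest to Ifitm3 lay 169 bp beyond its 3′ end, with 10.5 and 8.68 at P0 and 7.88 and 9.42 at P8, and the one nearest to Ifitm1 lay 3623 bp beyond its 3′ end, with 8.52 and 8.01 against 10.2 and 8.01. Neither separated the passages as deposited, and scaled values put P8 higher at the second (-0.41).

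Several sites of the Ifitm cluster had peaks at P0 alone. Of the 25 sites of the cluster 9 were shared by all libraries, 4 (16%, against 17.1% of all merged sites) had a peak in both P0 libraries only, 6 (24%, against 23.2%) in 1 P0 library only and 3 in 1 P8 library only, so the shares at P0 alone were near those of the genome. The strongest of the 4 stood between Ifitm1 and Ifitm3 at chr7:140990746-140991017, with 6.21 and 8.24. The others were 854 bp from the start of Ifitm5, which is known from osteoblasts (2.77 and 3.64), 488 bp from the start of Ifitm6 (3.73 and 4.58), and at -30443 bp from the Ifitm3 start (3.402 and 3.71). The Ifitm6 start itself was not limited to P0. A site 12 bp from it had a peak in P0 library B (4.12) and in both P8 libraries (4.45 and 5.05). Of the 9 shared sites of the cluster 5 were higher at P0 as deposited (against 49.9% of all shared sites), and after scaling 0 were higher at P0 (against 22.2%) and 3 at P8 (against 33.6%). Among the 5 was one at -31069 bp from Ifitm3 with 14.0 and 12.2 at P0 and 9.89 and 11.1 at P8.

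Isg15 (chr4:156199424-156200818, minus strand) had no peak within 1 kb of its start in any library, although its upstream window holds the largest number of ISRE matches among the 9 genes. The flanking sites went in opposite directions. At -2329 bp (chr4:156202953-156203702), inside Perm1, fold enrichment was 8.81 and 10.2 at P0 against 6.40 and 7.75 at P8, a log2 ratio of 0.42 (0.16 after scaling). At 2793 bp, over the start of Agrn, which encodes a heparan sulfate proteoglycan of basement membranes, it was 8.72 and 8.68 at P0 against 9.30 and 10.2 at P8, a log2 ratio of -0.16 (-0.42 after scaling). Each direction held on all 3 scales without overlap. Further upstream the starts of Plekhn1 and Noc2l gave directions that depended on the scale. The Plekhn1 site had 8.10 and 5.90 against 7.54 and 9.67, with overlap as deposited and P8 higher after scaling (-0.55) and in the pileup over background, and the same held for a site 387 bp from the Noc2l start. A site at the neighbouring Klhl17 start was higher at P0 as deposited, with 4.53 and 4.86 against 3.57 and 4.24, and overlapped on the other scales, while the site over the Noc2l start overlapped on all 3.

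Whether genes with the ISRE letters behave alike was asked over all protein-coding genes with a listed start. The letters stood upstream of 608 genes, of which 52.0% had a start peak in all 4 libraries and 39.6% in none, against 59.8% and 31.6% of all 17492 genes. Among the 316 with a start peak in every library, P0 was higher in 59.5% and P8 in 5.06%, against 61.5% and 4.21% of all such genes, and the median log2 ratio was 0.23 in both. Scaled values gave 17.1% and 31.0%, against 20.5% and 32.3%. Genes with the GAS letters, 1338 in number, had a start peak in every library in 54.3%, with P0 higher in 63.8% and P8 in 5.23% of those. These are descriptions of the listed windows without a test.

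The wider pathway was read from a list of 88 other gene names by role, in which Rigi and Ddx58 name the same gene. Of the names 84 were found (Ddx58 but not Rigi), 16 of them by both gene ends because no start is listed. The start peak of these 16 is the highest peak at either end, whereas the shares over all genes come from listed starts only. A start peak stood in all 4 libraries for 60 genes, in some for 11 and in none for 13. Of the 60, 34 were higher in both P0 libraries (56.7%, against 61.5% of all gene starts), 1 was higher in both P8 libraries (1.67%, against 4.21%) and 25 overlapped, with a median log2 ratio of 0.27 beside 0.23 for all starts. Scaled values gave 12 of the 60 higher at P0 and 16 higher at P8, against 20.5% and 32.3% of all gene starts. The majority at P0 thus depends on the scale, as it does over all gene starts.

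**Figure D4:**
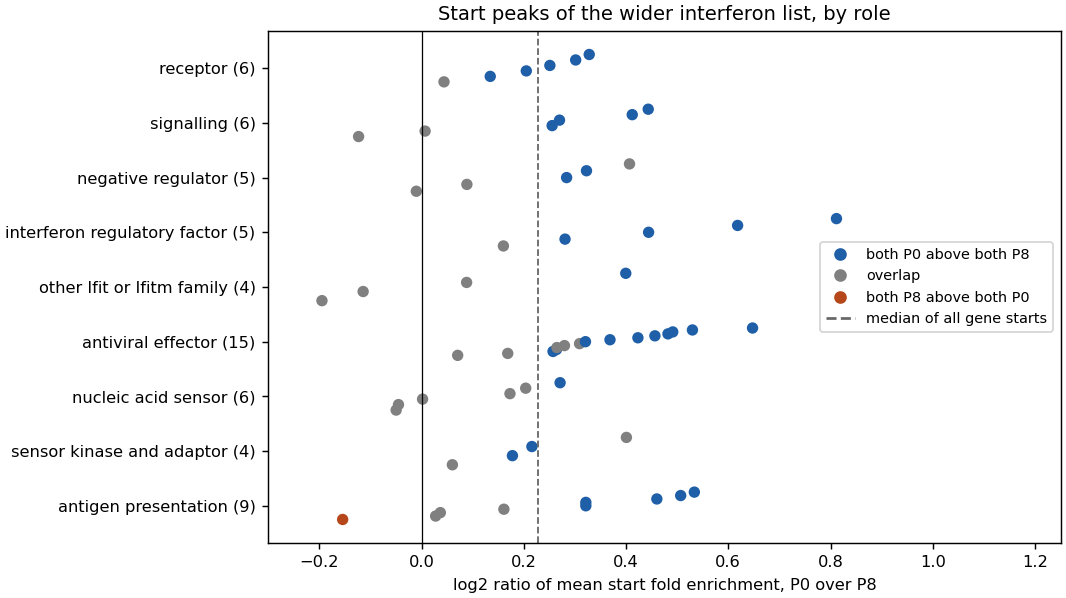
Log2 ratio of mean fold enrichment at the gene start, P0 over P8 (horizontal axis), for the 60 genes of the wider interferon list with a start peak in 4 libraries, by role with the number of genes in brackets, 1 point per gene. Genes without a listed start are read at either gene end, while the median line uses listed starts only. The dashed line is the median of all gene starts at 0.23, and the points of most roles lie on both sides of it, with Irf8 farthest to the right at 0.81.

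Few of the ligand genes had a start peak. Of 8 interferon genes 7 had no start peak in any library, against 31.6% of all genes. Ifnb1 and the 2 type III genes Ifnl2 and Ifnl3 were among these 7. Ifng had a start peak at P0 only (7.45 and 5.03). The receptors and the signalling chain had a start peak in every library, in 6 of 6 and 6 of 6 genes (against 59.8% of all genes). As deposited, P0 was higher at 5 (83.3%) and 4 (66.7%) of them, against 61.5% of all such starts. Scaled counts are not given by role, and over the whole list the majority at P0 depended on the scale. Ifnar2, a chain of the type I receptor, had 10.3 and 10.0 at P0 against 7.40 and 8.76. Stat2, a part of the ISRE complex, had 15.3 and 18.4 against 15.1 and 12.9. These are values as deposited, and scaled values are not given for either gene. The 5 negative regulators all had a start peak in every library (against 59.8% of all genes), and 2 of them were higher at P0 (40%, against 61.5%).

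The 2 genes with a start peak in both P0 and no P8 library were Ifng and Ifitm5, 2 of 84 against 3.50% of all genes. The Ifitm5 site lay 854 bp from the start and did not cover it. The 5 largest ratios toward P0 were those of Irf8 (0.81), Gbp3 (0.65), Irf4 (0.62), Nlrc5 (0.53, read at either gene end) and Ifih1 (0.53). Irf8 and Irf4 are factors best known from blood cells and had 7.49 and 10.8 against 4.76 and 5.69 in the first and 8.12 and 7.04 against 4.45 and 5.42 in the second. Ifih1, a sensor of double-stranded RNA, had 13.1 and 11.6 against 9.10 and 8.03. Among 24 antiviral effectors 15 had a start peak in every library (62.5%, against 59.8% of all genes) and 10 of these were higher at P0 (66.7%, against 61.5%), while 4, Oas1a, Oas2, Oas3 and Oasl2, had none (against 31.6%). Of 7 genes listed as nucleic acid sensors 6 had a start peak in every library (85.7%, against 59.8%). Of these 6, 1 was higher at P0 (16.7%, against 61.5%), namely Mavs. Ifih1 was counted among the effectors, so these shares depend on how the genes were assigned to roles. Tapbp, a chaperone of antigen loading, was the gene higher in both P8 libraries, with 5.62 and 5.39 at P0 and 6.16 and 6.09 at P8 and a log2 ratio of -0.15. Tap1 and Psmb9 share 1 start peak and count as 2 genes in these numbers.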

How the data were processed

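ATAC-seq libraries of mouse chondrocytes at P0 (2) and P8 (2) were analysed. The authors aligned the reads with Bowtie2 and called peaks in each library separately with MACS2 (versions not given in the sources used here; genome build mm10 in the submitters' processing notes). The deposited tables give for every peak the summit pileup (a signal in tags, without scaling to depth), its fold enrichment (a ratio to local background) and its p-value and q-value as −log10. A further deposited table with the authors' own comparison of the passages (fold change, p-value and FDR per site) was not used. No column of values per library was left unused (0 columns). The prefix of each peak's name gave its library, and since it matches no replicate number of the labels the libraries are called A and B.

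Peaks on the main chromosomes were kept (4641 of 455071 were left out). Overlapping peaks (at least 1 bp) of the 4 libraries were merged into sites. The local background was computed from pileup and fold enrichment, and the Poisson p-value from both lay within 0.01 of the deposited −log10 p-value in 100% of 450430 peaks. Listed starts were taken from RefSeq GRCm38.p6 for 17492 of 21887 protein-coding genes. Sites were not tested anew from reads. Values per library were compared by exact two-sided permutation tests, and shares were set beside those of all genes or sites. Merging, start values and calls were tested on simulated data with known answers.

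Genes named are the 9 members and, of the wider list, genes with a start peak in one passage only and up to 5 per direction with the largest ratio among those without overlap. Other genes of the wider list, the neighbours at named sites and the genes counted by absence were named as examples after their values were seen. Members and lists were chosen with earlier results of these data known. Alternatives were another window (10, 100 or 3 kb), matched depth, a −log10 q-value of at least 5, other scalings, the nearest peak, a reciprocal overlap of 50% and leaving out each library. One marker gene is not reported here. Tools were Python 3.11.15 with Biopython 1.88, matplotlib 3.10.9, pandas 2.3.3, numpy 2.4.6 and scipy 1.17.1.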

Additional observations from a re-analysis of the deposited data

How the results depend on the processing

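Of 122 alternative values 92 kept their call or stayed within the spread, 28 moved and 2 reversed. The log2 ratio of peak numbers, 0.17, was 0.21 within 10 kb, 0.26 within 100 kb, 0.17 at matched depth and 0.28 for a −log10 q-value of at least 5, and 0.08 to 0.26 with each library left out in turn. Of the 9 starts, 2 were higher at P0 and 0 at P8, and these counts were 0 and 3 when divided by the median of shared gene-start sites, 1 and 1 for the nearest peak and, for P8, 2 without the pseudocount. With each library left out they ran from 3 to 4 and from 0 to 1 (4 without P8 library B). The log2 ratio of the Ifit2 start, 0.21, reversed to -0.047 by that division and to -0.14 by the nearest peak.

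The share of sites with a peak in both P8 and no P0 library, 1.12%, was 0% for the stricter q-value and within 10 kb, 6.74% with a reciprocal overlap of 50%, and 3.45% to 5.81% with a library left out. The share in every library, 50.6%, was 31.5% with the reciprocal overlap and 54.0% to 62.7% with a library left out (62.7% without P0 library A), and the share in both P0 and no P8 library, 10.1%, then ran from 12.8% to 26.4% (26.4% without P0 library B). With fewer libraries these classes are met more easily by construction. The share of shared sites higher at P0, 46.7%, with alternatives chosen after seeing the data, was 20% scaled, 26.3% within 10 kb, and 46.7% to 80.0% with a library left out (62.2% without P0 library A, 80.0% without P8 library B). Calls of a direction, at sites and at starts, are likewise met more easily with a library left out. In the wider list the 34 genes higher at P0 and 1 higher at P8 became 12 and 16 when scaled, where 20.5% and 32.3% of all gene starts are called. Within 3 kb 1 gene of the list had a start peak at P8 only, against 0 within 1 kb. Apart from these constructions, the cause was not tested. No paired analysis was possible because the peak names carry no replicate number of the labels. Depth limits what a missing peak shows, since no pileup under 6 tags was called at the lowest background.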
